A study of Homo sapiens with 46 samples.

Results

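The genes described are 10 heat shock chaperones, taken by symbol from the count tables of 4 cell types. The cytosolic members were HSPA8, HSP90AA1, HSP90AB1, HSPA1A, HSPA1B, DNAJB1 and HSPH1, and the mitochondrial members were HSPD1, HSPE1 and HSPA9. All 10 had rows in each of the 4 tables, which held 13656 to 17728 genes each and shared 10707. Counts of all transcripts of a gene were added up, so a value is a gene sum unless an isoform is named.

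Chaperones bind unfolded or partly folded proteins and use ATP to help them fold, assemble or cross membranes. In the cytosol HSP70 proteins take up new or damaged chains with the help of J-domain partners and nucleotide exchange factors, and pass some of them on to HSP90. In mitochondria the chaperonin HSP60 with its lid HSP10, and a mitochondrial HSP70, fold proteins that were made in the cytosol and imported, so all 10 mRNAs come from nuclear genes. Many of these genes carry heat shock elements, short GAA repeats in alternating orientation that bind heat shock factor 1, and several also have a high basal level in fast-growing cells.

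The samples were the established line H1, human pluripotent stem cells (hPSC) kept on Matrigel in mTeSR1, and cells made from it, collected after 5 days. Endoderm medium held WNT3A and Activin A, mesoderm medium held VEGF, BMP4 and bFGF with Activin A on the first day only, and ectoderm medium held A83-01, PNU-74654, Dorsomorphin and serum replacement. Each culture was split into cytoplasm (the supernatant of a mild NP-40 lysis), nucleus (a part of the pellet), and, after a urea and NP-40 lysis of nuclei, nucleoplasm (supernatant) and chromatin (pellet). The transcription inhibitor α-amanitin was in the buffers of every fraction, and there were 3 libraries for each cell type and fraction except mesoderm nucleoplasm, with 1, which makes 46 libraries in 16 groups. The labels describe 1 cell line and do not say whether replicates came from separate cultures, so p-values measure only the spread between these libraries, which may be technical.

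Library totals ran from 4990408 to 21298678 counts, and levels are given as CPM, the counts per 1e+06 counts of that total. The pluripotency gene POU5F1 stood at 779 to 3580 CPM in the hPSC libraries. Of the marker lists, 5 of 6 ectoderm genes had rows in ectoderm and 6 of 6 endoderm genes in endoderm, but 4 of 7 mesoderm genes in mesoderm. In mesoderm BMP4 stood at 131.2 to 267.4 CPM, against 1.527 to 4.227 in hPSC. HAND1 stood at 24.86 to 136.3 CPM and had no row in hPSC. Both ranges overlapped those of endoderm. PDGFRA stood at 1.703 to 11.58 CPM in mesoderm, and TBXT, a defining primitive streak gene, at 0 to 0.301. In ectoderm SOX1 had no row and ZIC1 stood at 0.1409 to 0.8891 CPM, while PAX6 stood at 109.2 to 214.6. POU5F1 was still at 211.5 to 1999 CPM in endoderm and 164 to 935 in mesoderm. Endoderm libraries held 6 of the 7 mesoderm genes at a summed 211 to 536 CPM, which overlaps the 163 to 360 of mesoderm itself. The hPSC libraries also reached 27.1 to 467.8 CPM on this list, with KDR alone at 20.3 to 463.3. KDR had no row in mesoderm, so this sum does not set the cell types apart. In mesoderm 7 of 9 markers of other cell types (fibroblast, blood, trophoblast) had rows, with a summed level of 424 to 3333 CPM against 93.5 to 1151 in hPSC; PTPRC and HBG1 had no row. Mitochondrially encoded RNA made up 0.399% to 0.615% of counts in hPSC cytoplasm and 13.1% to 15.4% in hPSC nucleus, while mesoderm had 5.84% to 7.46% in cytoplasm and 1.11% to 1.36% in nucleus. The nuclear control RNAs were SNHG14, MALAT1, NEAT1, KCNQ1OT1 and XACT, as far as they had rows. NEAT1 had no row in endoderm. By median CPM over libraries, SNHG14 was the highest of them in hPSC, endoderm and mesoderm, and MALAT1 in ectoderm. Their sum was lower in nucleus than in cytoplasm in ectoderm, at 97.2 to 460.4 against 1359 to 2495 CPM. In endoderm it was lower too, at 123 to 495 against 514 to 712. This goes against the fraction names in these 2 cell types, and nucleus is used here as the name of those libraries. The summed cytoplasmic control mRNAs followed the names in endoderm, at 11920 to 13260 CPM in nucleus against 39170 to 43900 in cytoplasm, but were about equal in ectoderm, at 39890 to 51910 against 41490 to 43480. The nuclear control sums overlapped between the fractions in hPSC, at 849.5 to 1096 CPM in nucleus against 885 to 902 in cytoplasm. In mesoderm the nuclear control sums were 1269 to 1843 in nucleus against 616 to 762 in cytoplasm. The part of these differences in the chaperone results was not tested.

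Some libraries stood apart from their replicates in a way that followed the GC content of transcripts. Across genes, the deviation of hPSC chromatin replicate 3 from its 2 partners rose with GC (Spearman's rho 0.76), as it did for endoderm nucleus replicate 1 (0.66) and ectoderm nucleus replicate 2 (0.50). The chaperones span that range, with HSPH1 at 40.0% GC, HSP90AA1 at 43.0%, HSPD1 at 44.2%, HSPA9 at 44.7%, HSPA8 at 47.0%, HSP90AB1 at 47.3%, HSPE1 at 50.2%, DNAJB1 at 53.0%, HSPA1B at 58.7% and HSPA1A at 59.7%. In hPSC chromatin replicate 3 the log2 deviation was -2.01 for HSP90AA1 and -1.69 for HSPH1. In endoderm nucleus replicate 1 it was -1.99 and -1.73 for the same genes, with 0.26 for HSPA1A. Mesoderm chromatin replicate 3 stood apart in another way, by its mitochondrially encoded counts, which are given with the chromatin results. Results that use these libraries are therefore given without them as well, and, where it moves a value, with an offset that removes the GC trend of each library.

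**Figure D1:**
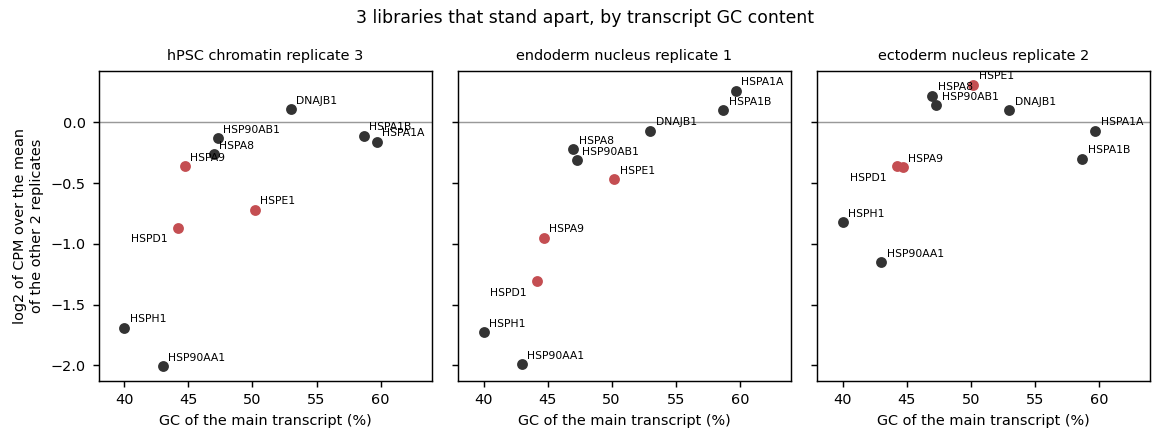
Each panel shows 1 library that stood apart. The x axis is the GC content of the gene's main transcript in percent and the y axis is the log2 ratio of the gene's CPM to the mean of the 2 other replicates, with cytosolic members in black and mitochondrial members in red. The members with the lowest GC, HSPH1 and HSP90AA1, lie lowest in all 3 panels, down to -2.01.

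The genes lie on 7 chromosomes of GRCh38 (GENCODE 29). HSPA1A (chr6:31815464-31817946, plus strand) and HSPA1B (chr6:31827735-31830255, plus strand) are neighbours that encode stress-inducible HSP70, and HSP90AB1 (chr6:44246166-44253888, plus strand) lies on the same chromosome. The transcripts of HSPA1A and HSPA1B were 93.6% identical over 2420 aligned columns, and 72.6% of the 50-base words of HSPA1A also occur in HSPA1B. How their reads were divided is uncertain, so their sum was examined too. HSPD1 (chr2:197486581-197516737, minus strand) and HSPE1 (chr2:197499994-197503457, plus strand) are transcribed in opposite directions, and the annotated span of HSPE1 lies inside that of HSPD1. Their RefSeq starts at 197500274 and 197500379 are 105 bases apart, with another HSPD1 start at 197499840. The main GENCODE transcripts start at 197500047 for HSPD1 and 197499994 for HSPE1, so these overlap at their 5′ ends. The other members are HSPA8 (chr11:123057489-123063230), HSP90AA1 (chr14:102080738-102139699), DNAJB1 (chr19:14514770-14529770), HSPH1 (chr13:31134974-31162388) and HSPA9 (chr5:138553756-138575724), all on the minus strand. Symbols of processed or other pseudogenes were most frequent for HSPE1 (26), HSPA8 (17) and HSPD1 (17), and reads could be shared with those copies.

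The upstream bases of the HSP70 pair are shown because both genes moved together in most comparisons and their upstream DNA is nearly the same. The HSPA1A stretch (RefSeq sequence, GRCh38.p14) ends where its GENCODE 29 transcript begins. The HSPA1B stretch holds the bases that align with it. It ends at position 31827659, upstream of the GENCODE 29 start of HSPA1B at 31827735. The RefSeq starts lie further downstream, at position 31815543 for HSPA1A and 31827738 for HSPA1B, so the marked letters are 106 and 105 bases before those. Over these 171 bases 164 were the same and 7 differed, an identity of 95.9%, and over the whole 250 bases before the RefSeq starts the identity was 94.4%. Capitals mark the letters GAANNTTC, which spell a pair of inverted GAA units of a heat shock element and read the same on both strands.
HSPA1A (chr6:31815293-31815463, plus strand): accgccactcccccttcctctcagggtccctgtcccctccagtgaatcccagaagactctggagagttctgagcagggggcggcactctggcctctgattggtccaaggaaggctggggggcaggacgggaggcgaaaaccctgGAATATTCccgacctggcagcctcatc
HSPA1B (chr6:31827489-31827659, plus strand): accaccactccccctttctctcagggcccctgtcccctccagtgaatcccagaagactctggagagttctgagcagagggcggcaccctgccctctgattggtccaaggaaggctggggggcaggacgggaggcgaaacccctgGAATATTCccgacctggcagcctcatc

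The same letters were searched in the 250 bases before every RefSeq start. They occurred for 7 of the 10 chaperone genes, against 1924 of 27305 genes (7.05%), and in 2030 of 35116 promoters (5.78%). The windows below place them in the other members with a match, 5′ to 3′ on the gene's strand, to show how the element varies at its middle bases.
HSPA8 (chr11:123062348-123062377, 230 bases before the start): ggggcgagcttGAAAGTTCcagaacgctgc
HSPA8 (chr11:123062168-123062197, 50 bases before the start): ggccccttctgGAAGGTTCtaagatagggt
HSP90AA1 (chr14:102087109-102087138, 83 bases before the start): gggttcttccgGAAGGTTCgggaggcttct
HSP90AB1 (chr6:44247772-44247801, 160 bases before the start): agcaggttctgGAAGATTCatgggctcctt
HSP90AB1 (chr6:44247825-44247854, 107 bases before the start): agattgttctgGAAGCTTCtggattctggc
DNAJB1 (chr19:14518456-14518485, 77 bases before the start): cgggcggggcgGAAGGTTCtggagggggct
DNAJB1 (chr19:14518426-14518455, 47 bases before the start): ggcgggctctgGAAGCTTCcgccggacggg
HSPD1 (chr2:197500062-197500090, 240 bases before an alternative start): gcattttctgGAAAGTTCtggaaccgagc

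Promoters with 2 or more matches made up 0.29% of all promoters, and HSPA8, HSP90AB1 and DNAJB1 each had 2 matches. These letters were not in the windows of HSPH1, HSPE1 and HSPA9. A match describes the sequence and was not set against any binding data.

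The 10 genes together took up 0.275% of counts in endoderm chromatin, the lowest group mean, and 0.971% in hPSC cytoplasm, the highest. Levels between genes were compared in the authors' TPM, which corrects for length. In hPSC cytoplasm HSP90AB1, the constitutive cytosolic HSP90, had the highest level at 1783 TPM ± 446 (SD, n = 3), followed by HSPE1, the mitochondrial HSP10, at 1135 ± 263. HSPA8, the constitutive HSP70, stood at 740 ± 85.3 TPM and HSPD1, the mitochondrial HSP60, at 666 ± 162. HSP90AA1, the inducible cytosolic HSP90, stood at 461 ± 162 TPM and HSPA9, the mitochondrial HSP70, at 181 ± 38.4. At the low end were DNAJB1, a J-domain partner of HSP70, at 61.2 ± 8.92 TPM, HSPA1A at 55.6 ± 14.8, HSPA1B at 52.2 ± 11.2 and HSPH1, an exchange factor for HSP70, at 31.5 ± 9.55. Of the 9 neighbouring pairs in this order, 5 overlapped in their libraries: HSP90AB1 with HSPE1, HSPA8 with HSPD1, HSPD1 with HSP90AA1, DNAJB1 with HSPA1A, and HSPA1A with HSPA1B. HSP90AB1 had the highest mean TPM in 15 of the 16 groups and HSPA8 in the other, endoderm nucleus, where the libraries of the pair overlapped. HSPH1 was lowest in 12 groups and DNAJB1 in 4.

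**Figure D2:**
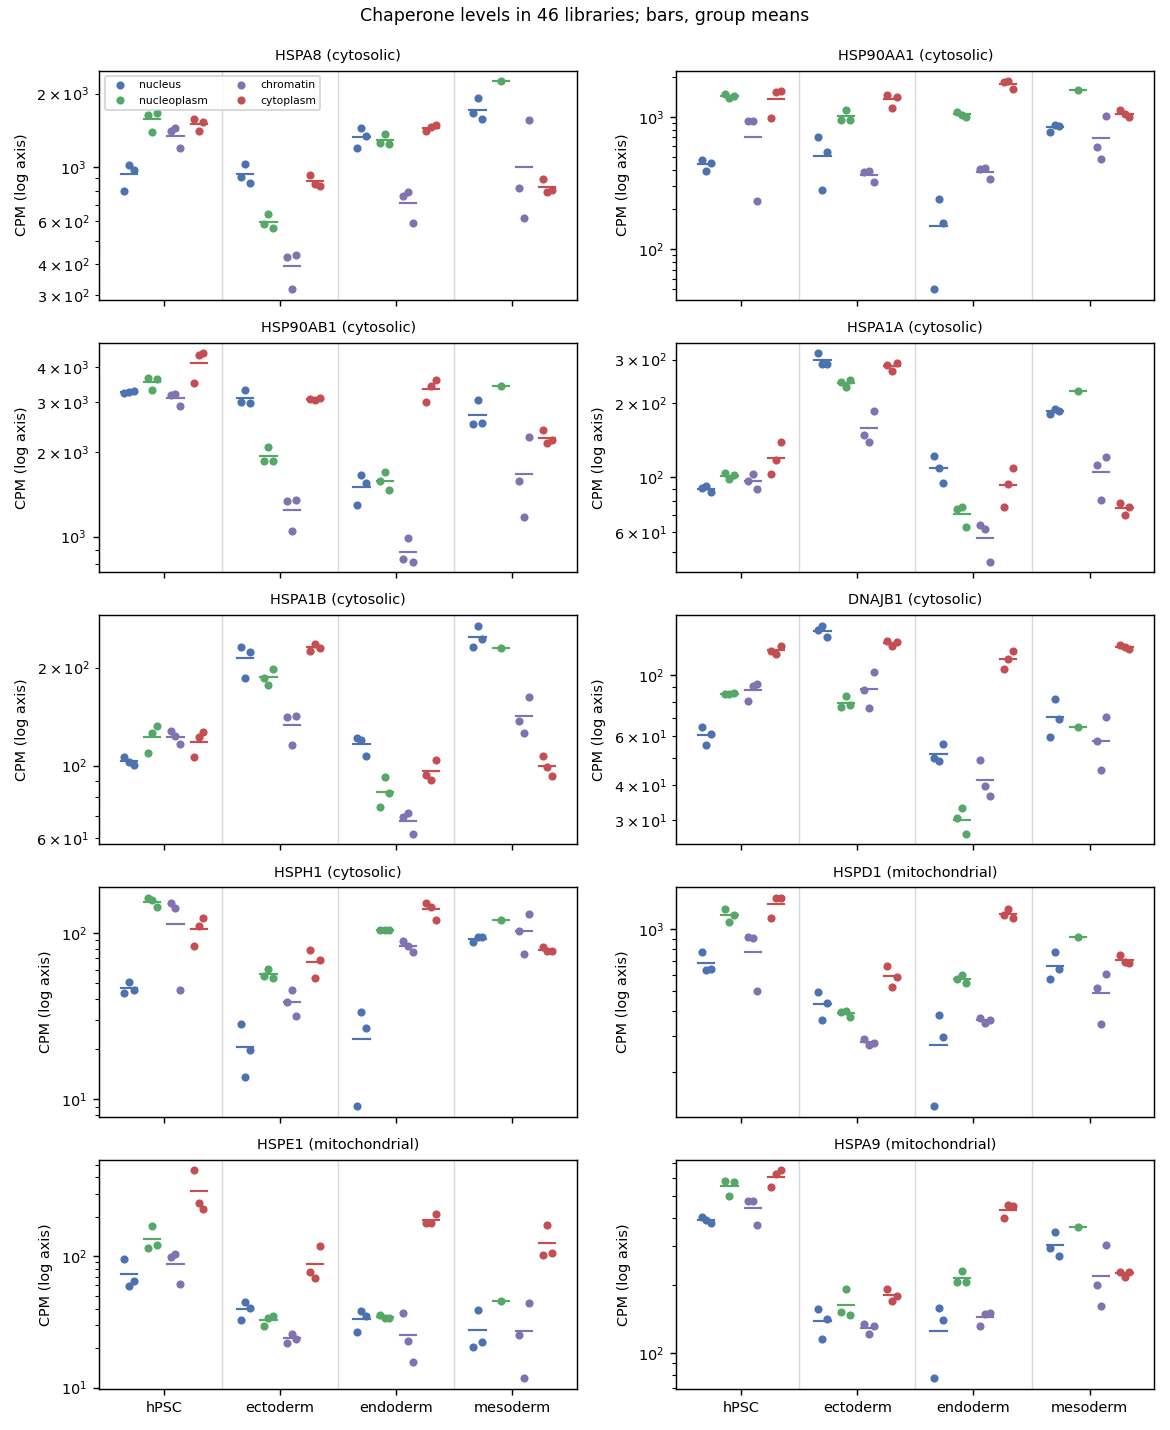
CPM (log axis) of each chaperone in every library, by cell type along the x axis and by fraction in colour; short bars are group means, and mesoderm nucleoplasm has 1 point. HSPE1 is highest in cytoplasm in every cell type, HSPA1A and HSPA1B are highest in ectoderm or mesoderm, and HSP90AA1 and HSPH1 show the low single points of hPSC chromatin and endoderm nucleus.

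The mitochondrial chaperones made up a larger share of the 10-gene TPM in cytoplasm than in the other fractions in all 4 cell types. hPSC cytoplasm had 38.9% (46.57%, 35.65% and 34.59% in its libraries), while hPSC nucleus had 26.0%, nucleoplasm 29.6% and chromatin 25.9%. The ectoderm shares were 20.2%, 14.6%, 17.3% and 19.7% in the same order, so cytoplasm and chromatin were close there. Endoderm had 34.1% in cytoplasm and 17.1% in nucleus, and mesoderm 31.5% and 17.3%. On CPM, the log2 ratio of the summed cytosolic to the summed mitochondrial members was 1.73 in hPSC cytoplasm and 2.81 in ectoderm cytoplasm. These ratios carry no test, since the members were chosen with results known.

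Within the HSP60 and HSP10 pair, whose proteins work as 1 machine, the 2 mRNAs were not in a fixed proportion across fractions. The TPM ratio of HSPE1 to HSPD1 was 1.86 in hPSC cytoplasm and 0.85 in hPSC nucleus. The hPSC cytoplasm mean was raised by replicate 1, with 2.994, 1.325 and 1.268 in the libraries. In mesoderm the ratio was 1.28 and 0.32, in endoderm 1.28 and 1.08, and in ectoderm 1.04 and 0.68. Within the HSP90 pair, the TPM ratio of HSP90AB1 to HSP90AA1 was 3.99 in hPSC cytoplasm and 9.72 in hPSC nucleus. In endoderm nucleus it was 33.7, 8.97 and 12.6 in the 3 libraries, a mean of 18.4 that rests on replicate 1, the library that stood apart, against 2.46 in endoderm cytoplasm. The same library raised the HSPE1 to HSPD1 ratio of endoderm nucleus, at 1.53 against 0.76 and 0.94 in the others. Mesoderm had the smallest gap, 4.17 against 2.73.

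The first comparison, of cytoplasm with nucleus, asks how chaperone mRNAs are divided between the 2. The test (edgeR, quasi-likelihood) scales libraries so that most genes do not differ, and a log2 difference is therefore relative to other genes and can differ from the ratio of the CPM printed. A gene was called at an adjusted p under 0.05 (Benjamini-Hochberg over all genes of the table). HSPE1 was the only member called higher in cytoplasm in all 4 cell types, and it was under each of the 5 scalings tried. DNAJB1 was higher in 3 cell types and lower in ectoderm, while HSPA8 was higher in hPSC and lower in the other 3.

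In hPSC, 8 of the 10 chaperones were higher in cytoplasm, where 35% of all genes tested were, and 0 were lower, where 30.3% of all genes were. The members' median difference was 0.75 on the log2 scale and that of all genes 0.10. HSPE1 held 455, 256 and 229 CPM in the cytoplasm libraries and 94.7, 59.7 and 64.4 in the nucleus libraries. Each cytoplasm library was above each nucleus library, and replicate 1 was high in both fractions. The log2 difference was 2.05 ± 0.29 (SE), a 4.15-fold change with an adjusted p of 3.64e-05. HSP90AA1 held 977, 1541 and 1577 CPM in cytoplasm against 472, 389 and 449 in nucleus (1.57 ± 0.37, adjusted p 0.00216), with no overlap. DNAJB1 held 122, 119 and 127 CPM against 64.7, 55.8 and 61.1 (0.95 ± 0.10, adjusted p 1.94e-06), the most even set of replicates among the called members.

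HSPH1 (1.11 ± 0.32), HSPD1 (0.89 ± 0.20), HSPA8 (0.61 ± 0.14) and HSPA9 (0.56 ± 0.12) were also higher in hPSC cytoplasm, and their libraries did not overlap between the fractions. HSPA1A was higher by 0.34 ± 0.11 (adjusted p 0.0134), but the call was lost without cytoplasm replicate 3 (0.26) and in the sum of HSPA1A and HSPA1B (0.23), and in TPM the direction turned (-0.07). HSP90AB1 (0.27, adjusted p 0.0829) and HSPA1B (0.13, adjusted p 0.286) did not pass the test. In TPM, tested with limma, 3 of the 10 were called: HSP90AA1, DNAJB1 and HSPE1. Relative to the median of all genes, 9 of the 10 were on the cytoplasmic side under all 5 scalings (TMM, library totals, DESeq2, TPM, GC offset), and HSPA1B was on that side under 4. This measure subtracts the median of each scaling, so a shift shared by all genes cannot move it. The split of all calls moved from 53.6% higher to 33.8% higher in TPM.

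In ectoderm 3 chaperones were higher in cytoplasm (27.2% of all genes) and 3 were lower (26.5% of all genes). HSPH1 held 78.4, 53.2 and 68.9 CPM in cytoplasm against 28.3, 13.6 and 19.8 in nucleus (1.40 ± 0.19, adjusted p 4.98e-05). HSP90AA1 held 1466, 1173 and 1419 CPM against 699, 278 and 539 (1.12 ± 0.20, adjusted p 0.000486). HSPE1 held 76.2, 68.3 and 119 CPM against 32.6, 45.3 and 40.2 (0.78 ± 0.21, adjusted p 0.00773). None of these 3 overlapped between the fractions, and all 3 remained called without the nucleus replicate 2 that stood apart, at 1.32, 0.95 and 1.08. With the GC offset HSPH1 was at 0.61 and still called.

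DNAJB1 was lower in ectoderm cytoplasm by -0.50 ± 0.12 (adjusted p 0.00436), with 132, 127 and 131 CPM against 145, 150 and 137. Its call was lost with the GC offset (-0.11) and without TMM (-0.14). HSPA1A was lower by -0.43 ± 0.11, but its libraries overlapped, the call was lost without cytoplasm replicate 1 (-0.34), and the sign turned with the GC offset (0.13). HSPA8 was lower by -0.46 ± 0.15 with overlapping libraries, and it was not called without nucleus replicate 2 (-0.19), without cytoplasm replicate 1 (-0.40) or 3 (-0.36), or without TMM (-0.10). HSPD1 (0.12) and HSPA9 (0.06) were not called. With the GC offset both were negative, and HSPA9 was called lower (-0.26, adjusted p 0.0225). HSPA1B was not called without the offset but was called higher with it (0.31, adjusted p 0.00611). Across all 12863 genes with a GC value, the ectoderm difference fell with GC (rho -0.67). Without TMM, 76.4% of all calls in ectoderm were higher in cytoplasm against 50.7% with it, and 75.7% in TPM.

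In endoderm all 10 passed the test, 7 higher in cytoplasm (34.3% of all genes) and 3 lower (35.4% of all genes). HSP90AA1 had the largest change of the 10: 1824, 1861 and 1615 CPM in cytoplasm against 50.0, 239 and 159 in nucleus, a log2 difference of 2.96 ± 0.32 (7.77-fold, adjusted p 1.05e-06). Nucleus replicate 1, which stood apart, was the lowest of these, and the difference was 2.61 without it. HSPH1 held 151, 144 and 120 CPM in cytoplasm against 9.07, 33.4 and 26.6 in nucleus (1.96 ± 0.24, and 1.67 without nucleus replicate 1). HSPE1 held 180.0, 179 and 209 CPM against 26.7, 38.6 and 35.1 (1.81 ± 0.23, adjusted p 5.52e-06). The groups of these 3 genes were far apart, with every cytoplasm library more than any nucleus library.

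HSPD1 (1.49 ± 0.20, 2.81-fold) and HSPA9 (1.13 ± 0.15, 2.20-fold) were higher in endoderm cytoplasm too, so all 3 mitochondrial members were. With the GC offset the values were smaller but still called, at 0.86 for HSPD1, 0.38 for HSPA9 and 0.72 for HSPH1, while HSPE1 was at 1.92 and HSP90AA1 at 2.50. HSP90AB1 (0.44, adjusted p 0.0347) and DNAJB1 (0.42, adjusted p 0.0392) were near the threshold. The HSP90AB1 call was lost without cytoplasm replicate 2 (0.42) or 3 (0.39) or nucleus replicate 3 (0.40) and with the GC offset (0.32). The DNAJB1 call was lost without cytoplasm replicate 2 (0.41) or 3 (0.36) or nucleus replicate 2 (0.31) or 3 (0.39).

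The cytosolic HSP70 genes HSPA1A, HSPA1B and HSPA8 were lower in endoderm cytoplasm relative to other genes. HSPA1A changed by -0.98 ± 0.22 and HSPA1B by -1.02 ± 0.17, though with the GC offset these were -0.10 and -0.21 and not called. HSPA8 changed by -0.58 ± 0.17 (adjusted p 0.00811), while its CPM was 1411, 1460 and 1488 in cytoplasm and 1195, 1441 and 1339 in nucleus. The libraries overlap, and without TMM the value is 0.13. Scaling by library totals moved the median of all genes by 0.70 in this comparison, and relative to that median HSPA8 stood between -0.95 and -0.55 under the 5 scalings. The HSPA8 change thus describes its place among other genes and not its share of the library. Of all calls 49.2% were higher with TMM, 71.4% without it and 62.8% in TPM.

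In mesoderm 2 chaperones were higher in cytoplasm (31.8% of all genes) and 3 were lower (31.4% of all genes). HSPE1 held 102, 173 and 106 CPM in cytoplasm against 20.5, 38.9 and 22.3 in nucleus (2.35 ± 0.41, 5.09-fold, adjusted p 0.000479). DNAJB1 held 128, 126 and 123 CPM against 59.6, 81.9 and 69.3 (0.95 ± 0.17), but in TPM it was -0.26, where the median of all genes was -0.82. Both genes had no overlap between fractions, and replicate 2 was the highest nucleus library for each.

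The cytosolic HSP70 genes HSPA1A, HSPA1B and HSPA8 were lower in mesoderm cytoplasm. HSPA1A held 78.9, 70.2 and 75.8 CPM against 181, 189.6 and 185 in nucleus (-1.20 ± 0.16, adjusted p 5.98e-05). HSPA1B held 107, 98.9 and 92.9 CPM against 232, 269 and 245 (-1.21 ± 0.14, adjusted p 2.59e-05). HSPA8 held 890.1, 788 and 805 CPM against 1664, 1925 and 1576 (-0.95 ± 0.30, adjusted p 0.0158), a call lost without cytoplasm replicate 2 (-0.93). Every cytoplasm library was below every nucleus library for these 3 genes, and the HSPA1A and HSPA1B values were called under each of the scalings. HSP90AA1 (0.45, adjusted p 0.137), HSP90AB1 (-0.16), HSPH1 (-0.11), HSPD1 (0.20) and HSPA9 (-0.32) were not called. In TPM 9 members were called, and 10.6% of all calls were higher against 50.3%.

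**Figure D3:**
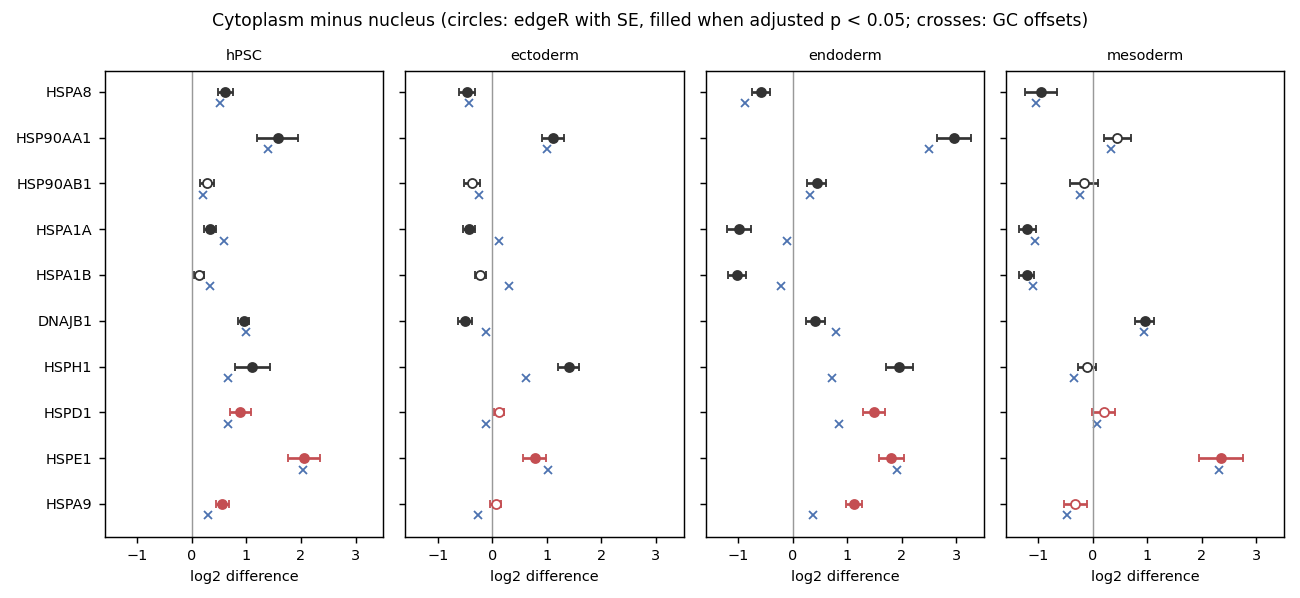
Log2 difference of cytoplasm minus nucleus for each chaperone, with its SE, in 4 cell types; filled circles passed an adjusted p of 0.05, red marks mitochondrial members, and crosses give the value with the GC offset. HSPE1 lies right of 0 in every panel (0.78 to 2.35), and HSPA1A and HSPA1B lie left of 0 in mesoderm in both fits.

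Chromatin was compared with nucleoplasm to ask whether nuclear chaperone mRNA stays in the pellet. The called members were all lower in chromatin: 7 in hPSC, where 13.3% of all genes were lower, 9 in ectoderm (25.7% of all genes) and 9 in endoderm (30.6% of all genes). No member was called higher, against 17.1%, 18.5% and 22.9% of all genes. The members' medians were -0.51, -0.81 and -1.09, and those of all genes 0.00, -0.09 and -0.12. Under all 5 scalings 10 of 10 members in hPSC and 9 in ectoderm stayed below the median of all genes, and in endoderm all but DNAJB1 did. A shift shared by all genes cannot move this measure. The calls themselves were less stable: 0 of 7 in hPSC, 1 of 9 in ectoderm and 4 of 9 in endoderm were kept under every scaling.

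HSP90AA1 had the largest fall in each. In hPSC it held 929, 935 and 231 CPM in chromatin against 1481, 1386 and 1428 in nucleoplasm (-1.27 ± 0.37, adjusted p 0.0207). Chromatin replicate 3 was far below the others; without it the difference was -0.85 (adjusted p 0.00275), and without nucleoplasm replicate 1 the call was lost. In ectoderm HSP90AA1 held 384, 391 and 325 CPM against 951, 1128 and 947 (-1.74), and in endoderm 402, 409 and 337 against 1090, 1038 and 1005 (-2.03 ± 0.31, 4.07-fold, adjusted p 5.81e-05). The groups were separate in all 3 cell types.

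HSPA8 fell by 1.43 on the log2 scale in endoderm (SE 0.18, adjusted p 9.15e-06), where chromatin held 762, 789 and 591 CPM and nucleoplasm 1252, 1368 and 1242. It was -0.89 in ectoderm and -0.45 in hPSC, where the libraries overlapped and TPM gave 0.12. HSP90AB1 was -1.42 in endoderm, -0.92 in ectoderm and -0.42 in hPSC, where TPM gave 0.15. The mitochondrial members were lower in all 3 cell types: HSPD1 by -0.84, -0.76 and -1.25 in hPSC, ectoderm and endoderm, HSPA9 by -0.56, -0.63 and -1.16 (in TPM 0.02 and 0.06 in hPSC and ectoderm), and HSPE1 by -0.87, -0.75 and -1.03. The HSPE1 call in ectoderm was lost without chromatin replicate 1 or 3 or nucleoplasm replicate 2.

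DNAJB1 was the member closest to 0 and was called in none of the 3. Its values for hPSC, ectoderm and endoderm were -0.19 (adjusted p 0.15), -0.13 (adjusted p 0.42) and -0.10 (adjusted p 0.654). Without TMM they turned to 0.05, 0.16 and 0.48, while with the GC offset DNAJB1 was called lower in hPSC (-0.28, adjusted p 0.0249). In ectoderm it held 87.8, 75.7 and 102 CPM in chromatin and 76.4, 83.7 and 77.5 in nucleoplasm, which overlap. HSPA1A and HSPA1B were lower by -0.90 and -0.78 in ectoderm and by -0.90 and -0.88 in endoderm, while HSPA1B in hPSC was not called (-0.24).

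The hPSC set was the least firm. Of its 7 calls, HSPD1 and HSPA9 held in every fit that left out 1 library, and the count was 3 without chromatin replicate 3, 2 without nucleoplasm replicate 1 and 4 without nucleoplasm replicate 2. In TPM the hPSC value of HSPA1A turned to 0.26 as well; the median of all genes had moved by 0.47 there. The part of all calls that were higher in chromatin was 56.3% in hPSC with TMM, 86.5% without it and 96.7% in TPM. In ectoderm these were 41.8%, 71.0% and 96.5%, and in endoderm 42.8%, 73.8% and 76.0%. Across genes the difference rose with GC, with a rho of 0.60 in hPSC, 0.35 in ectoderm and 0.32 in endoderm.

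**Figure D4:**
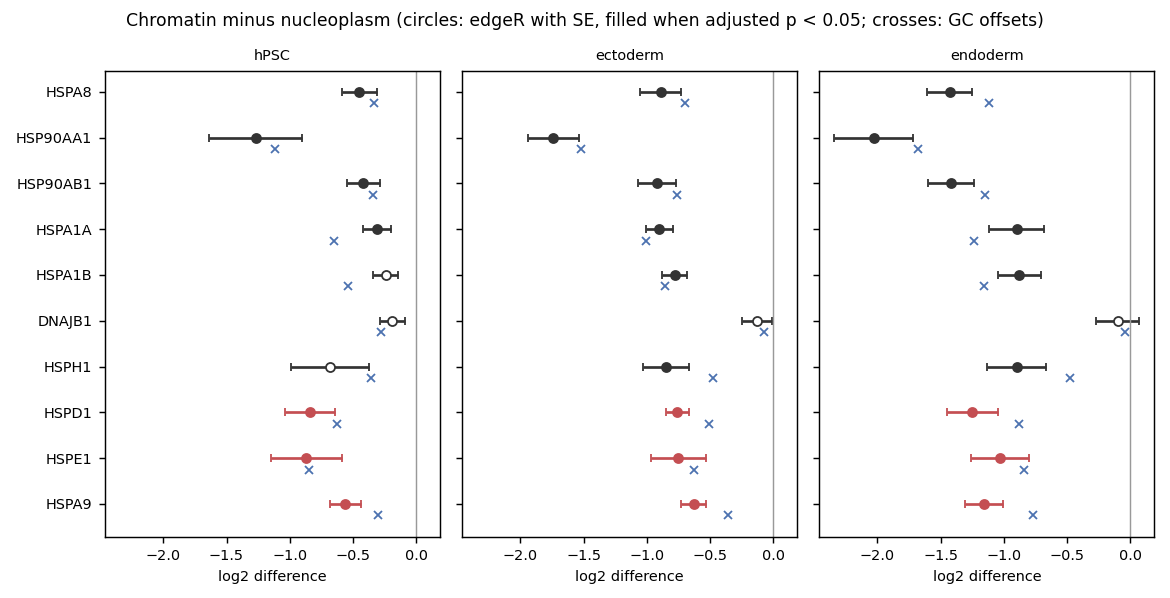
Log2 difference of chromatin minus nucleoplasm for each chaperone, with its SE, in the 3 cell types with replicates in both fractions; filled circles passed an adjusted p of 0.05, red marks mitochondrial members, and crosses give the value with the GC offset. All points lie left of 0, and DNAJB1 lies closest to it in each panel (-0.19, -0.13 and -0.10).

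In mesoderm, with 1 nucleoplasm library, no test was made. That library held 2252 CPM of HSPA8, above the chromatin libraries at 825, 619 and 1555, and 1585 CPM of HSP90AA1, above 593, 481 and 1009. DNAJB1 was again closest, with 65.1 CPM against 57.9, 45.4 and 70.1. Chromatin replicate 3 was the highest chromatin library for all 3 genes.

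The derived cell types were set against hPSC within cytoplasm and within chromatin to ask how chaperone mRNA changes with differentiation. These comparisons share the hPSC libraries, so they are not independent of each other, and the transcript assembly changes with the cell type. In bulk libraries a change in the cells that make up a culture and a change in RNA per cell cannot be told apart. The mitochondrial chaperones were lower than in hPSC in every called case. This was not particular to them, since HSP90AB1 was called lower in each comparison and HSPA8 in all but mesoderm chromatin. HSPA1A and HSPA1B rose in ectoderm cytoplasm but were called lower in endoderm and mesoderm cytoplasm.

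In ectoderm cytoplasm 2 members were higher than in hPSC (39% of all genes) and 6 were lower (37% of all genes). HSPA9 held 194, 171 and 179.7 CPM in ectoderm against 547, 624 and 651 in hPSC, a log2 difference of -1.80 ± 0.10 (3.48-fold lower, adjusted p 6.71e-10). HSPE1 held 76.2, 68.3 and 119 CPM against 455, 256 and 229 (-1.90 ± 0.27), and HSPD1 held 662, 520.4 and 584 against 1136, 1419 and 1425 (-1.23 ± 0.11). In all 3 the highest ectoderm library was below the lowest hPSC library. HSPA1A went the other way, with 287, 270.3 and 289.6 CPM against 103, 117 and 139 (1.18 ± 0.13, 2.27-fold, adjusted p 8.8e-07). HSPA1B also rose, with 225, 237 and 230.0 CPM against 106, 123 and 127 (0.91 ± 0.10, adjusted p 1.14e-06). HSPA8 (-0.83 ± 0.11), HSPH1 (-0.72) and HSP90AB1 (-0.48) were lower, while HSP90AA1 (-0.07, adjusted p 0.674) and DNAJB1 (0.03, adjusted p 0.735) were not called.

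In endoderm cytoplasm 0 members were higher (27.5% of all genes) and 8 were lower (32.2% of all genes). HSPE1 held 180.0, 179 and 209 CPM, below the 3 hPSC libraries (-0.95 ± 0.27, adjusted p 0.00699), and HSPA9 held 400.3, 453 and 450.4 (-0.70 ± 0.10, adjusted p 2.9e-05). HSPA1A (-0.58), HSPA1B (-0.53), HSP90AB1 (-0.53), HSPD1 (-0.38) and DNAJB1 (-0.33) were lower by less. The HSPD1 and DNAJB1 calls were lost without endoderm cytoplasm replicate 1 (-0.31 and -0.22). HSPA8 (-0.27, adjusted p 0.0407) lost its call without each of 5 of the 6 libraries in turn and turned to 0.06 in TPM, with the all-gene median moved by 0.32. HSPE1 was the call that held under every scaling. In cytoplasm the markers of other cell types summed to 205 to 230 CPM in endoderm against 93.5 to 118 in hPSC, and the pluripotency markers to 4395 to 4912 against 6122 to 6563; their part in these values was not tested. The part of all calls that were higher went from 46% to 66.9% without TMM and 77.4% in TPM.

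In mesoderm cytoplasm 0 members were higher (34.9% of all genes) and 9 were lower (33% of all genes). HSPA9 held 231, 219 and 231 CPM (-1.47 ± 0.10, 2.76-fold lower, adjusted p 9.74e-09), HSPE1 was lower by -1.34 (2.53-fold, adjusted p 0.000441) and HSPD1 by -0.96 (1.94-fold, adjusted p 3.47e-06). HSPA8 (-0.91) and HSP90AB1 (-0.93) fell by nearly as much as HSPD1. HSPA1A (-0.72), HSPH1 (-0.45), HSP90AA1 (-0.41) and HSPA1B (-0.30) fell less. The HSP90AA1 call was lost without hPSC cytoplasm replicate 2 or 3 or mesoderm cytoplasm replicate 2 or 3, and the HSPA1B call without hPSC cytoplasm replicate 2 or 3 or mesoderm cytoplasm replicate 3. DNAJB1 was not called (-0.01). In cytoplasm the markers of other cell types summed to 424 to 494 CPM in mesoderm against 93.5 to 118 in hPSC, and their part in these values was not tested. In TPM 63.8% of all calls were higher against 51.4%.

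In chromatin the mitochondrial chaperones were again lower, and so was HSP90AB1. In ectoderm chromatin 1 member was higher than in hPSC (32.3% of all genes) and 6 were lower (30.1% of all genes). HSPA8 held 431, 316 and 436 CPM against 1402, 1446 and 1193 (-1.71, adjusted p 0.000106). HSPE1 (-1.83), HSPA9 (-1.70), HSPH1 (-1.49), HSPD1 (-1.40) and HSP90AB1 (-1.25) were lower, and HSPA1A was higher (0.78 ± 0.17, adjusted p 0.00138), with 149, 139 and 186 CPM against 97.0, 103 and 89.2. All 7 calls held under every scaling and in every fit that left out a library. HSP90AA1 (-0.86) was not called but was without hPSC chromatin replicate 3 (-1.26, adjusted p 0.000468).

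In endoderm chromatin 0 members were higher (31.1% of all genes) and 8 were lower (30.8% of all genes). The largest falls were those of HSP90AB1 (-1.56), HSPE1 (-1.56) and HSPA9 (-1.36), followed by HSPD1 (-0.86), DNAJB1 (-0.82), HSPA8 (-0.67), HSPA1B (-0.61) and HSPA1A (-0.51). Each of 6 fits that left out 1 library ended the HSPA8 call, and the HSPA1A call was lost without hPSC chromatin replicate 1 or 2 or endoderm chromatin replicate 3. Without hPSC chromatin replicate 3, HSP90AA1 (-0.97) and HSPH1 (-0.51) were called as well. The part of all calls that were higher went from 50.3% to 37.8% without TMM and 36.4% in TPM.

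In mesoderm chromatin 1 member was higher (28.5% of all genes) and 4 were lower (25.8% of all genes). Mesoderm chromatin replicate 3 stood apart, with 5.53% of its counts from mitochondrially encoded genes against 1.12% and 0.77%, and 0.625% from the 10 chaperones against 0.415% and 0.312%. Without it 6 members were called, all lower: HSPE1 (-2.13), HSPA9 (-1.12), HSP90AB1 (-1.01), HSPA8 (-0.73), HSPD1 (-0.68) and DNAJB1 (-0.60). HSPE1 held 25.3, 11.8 and 44.4 CPM against 98.1, 105 and 61.7 in hPSC (-1.57, adjusted p 0.00405), and it was called under every scaling. HSPA9 (-0.86), HSP90AB1 (-0.75) and DNAJB1 (-0.46) were lower and HSPA1B was higher (0.36, adjusted p 0.0353). The HSPA1B and DNAJB1 calls were each lost without hPSC chromatin replicate 2 or 3 or mesoderm chromatin replicate 2. The HSPA1B call was also lost without hPSC chromatin replicate 1 or mesoderm chromatin replicate 3, and the DNAJB1 call without mesoderm chromatin replicate 1. HSPD1 (-0.53, adjusted p 0.0694) was called without hPSC chromatin replicate 3 (-0.75) or mesoderm chromatin replicate 3. The other cell types' markers summed to 1513 to 1907 CPM in mesoderm chromatin against 747 to 949 in hPSC, and their part was not tested. In TPM 65.7% of all calls were higher against 52.6%.

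**Figure D5:**
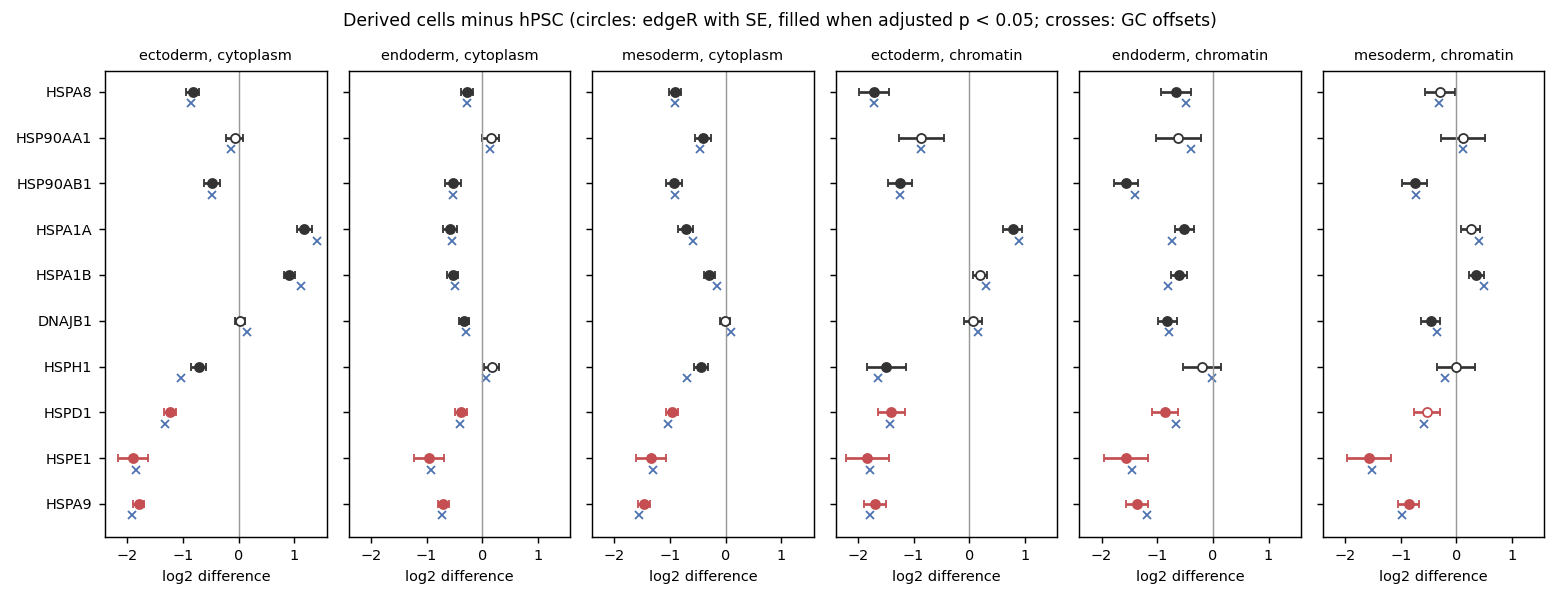
Log2 difference of each derived cell type minus hPSC, with its SE, in cytoplasm (3 left panels) and chromatin (3 right panels); filled circles passed an adjusted p of 0.05, red marks mitochondrial members, and crosses give the value with the GC offset. HSPE1, HSPD1, HSPA9, HSP90AB1 and HSPA8 lie left of 0 in all 6 panels, and HSPA1A lies right of 0 and filled in both ectoderm panels (1.18 and 0.78).

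Whether the division between cytoplasm and nucleus itself differed from that in hPSC was tested with an interaction contrast. In ectoderm 5 members shifted toward nucleus (26% of all genes) and 0 toward cytoplasm (26.3% of all genes). DNAJB1 shifted most (-1.31 ± 0.20, adjusted p 2.45e-05), from 0.95 in hPSC to -0.50 in ectoderm when each cell type was fitted alone. HSPE1 (-1.13), HSPA8 (-0.94), HSPA1A (-0.64) and HSPD1 (-0.63) shifted by less. Without ectoderm nucleus replicate 2 there were 2 calls, HSPA8 (-0.66) and DNAJB1 (-1.08), and HSPA1A and HSPD1 were each called in 5 of the 12 fits without 1 library. HSPE1 also lost its call without hPSC cytoplasm replicate 1 or nucleus replicate 2, or ectoderm cytoplasm replicate 1 or 2. In TPM 82.2% of all calls were toward cytoplasm against 50.2%. Only the DNAJB1 call was kept under every scaling.

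In endoderm 4 members shifted toward cytoplasm (20% of all genes) and 3 toward nucleus (18.5% of all genes). HSP90AA1 (1.43 ± 0.38, adjusted p 0.0063), HSPH1 (0.89), HSPD1 (0.64) and HSPA9 (0.61) shifted toward cytoplasm. HSPA1A (-1.29 ± 0.25), HSPA8 (-1.16) and HSPA1B (-1.12) shifted toward nucleus. With the GC offset HSPH1 turned to -0.02, and the calls of HSPD1 (0.14) and HSPA9 (0.02) were lost too. The 4 members still called were HSP90AA1 (1.05), toward cytoplasm, and HSPA8 (-1.43), HSPA1A (-0.72) and HSPA1B (-0.59), toward nucleus. All 7 members named first were called without endoderm nucleus replicate 1. The calls of HSPH1 and HSPD1 were lost without hPSC cytoplasm replicate 1, endoderm cytoplasm replicate 1 or 2, or 1 hPSC nucleus library. The part of all calls toward cytoplasm went from 51.9% to 92.0% without TMM and 94.6% in TPM. Only the HSP90AA1 call was kept under every scaling.

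In mesoderm 6 members shifted toward nucleus (6.8% of all genes) and 0 toward cytoplasm (18.5% of all genes). HSPA8 (-1.49 ± 0.23, adjusted p 0.000128), HSPA1A (-1.47 ± 0.25), HSPA1B (-1.27 ± 0.20), HSPH1 (-1.15) and HSPA9 (-0.80) were called in this fit and under each scaling. HSP90AA1 (-1.05, adjusted p 0.0476) lost its call without any library but hPSC cytoplasm replicate 1. The median of all genes was 0.18 here and that of the members -0.92. HSPE1, HSPD1, HSP90AB1 and DNAJB1 were not called, and the part of all calls toward cytoplasm moved from 73.1% to 48.8% without TMM, 5.29% in TPM and 56.8% with the GC offset.

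Single transcripts were tested to ask whether isoforms of 1 chaperone behave alike. In hPSC 10 of 18 tested isoforms of the members were higher in cytoplasm (19.6% of all transcripts) and 1 was lower (20%). In ectoderm 3 of 21 were higher (7.03%) and 2 lower (6.62%), in endoderm 11 of 19 were higher (19.3%) and 2 lower (22.9%), and in mesoderm 3 of 21 were higher (15.3%) and 2 lower (16.8%). The ectoderm count of 5 fell to 2 without cytoplasm replicate 3 and to 3 without cytoplasm replicate 1 or 2 or nucleus replicate 2. Most members had 1 leading isoform. For all members but HSPA9, DNAJB1 and HSPH1 it held at least 93.85% of counts in every cell type. The shares of HSPA9, DNAJB1 and HSPH1 isoforms varied more with the cell type and its assembly. ENST00000297185 of HSPA9 held 97.2%, 77.4%, 80.4% and 100% of counts for hPSC, ectoderm, endoderm and mesoderm, and ENST00000254322 of DNAJB1 held 99.9%, 99.6%, 91.3% and 83.8% in the same order. Among called isoforms, HSPA9 in hPSC was the case in which isoforms of a member went in opposite directions; isoforms that were not called also differed in sign for some members. Its main isoform was higher in cytoplasm (0.64 ± 0.13, adjusted p 0.00262), while ENST00000508003, annotated as a retained intron transcript with 2.79% of the gene's counts, was lower (-1.29 ± 0.22, adjusted p 0.00104).

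HSPH1 was the member with the most mixed isoforms. ENST00000320027 held 95.8% of its counts in hPSC and 78.7% in endoderm, while ENST00000380405 held 53.7% in ectoderm and ENST00000630972 55.1% in mesoderm; each cell type has its own assembly, so these shares also depend on it. In endoderm both larger isoforms were higher in cytoplasm (2.11 ± 0.35 and 2.54 ± 0.37), and in ectoderm ENST00000380405 (1.62 ± 0.23) and ENST00000630972 (1.22 ± 0.32) were. The main HSPA8 isoform, ENST00000534624, was called in hPSC (0.65 ± 0.13) but not in ectoderm (-0.48, adjusted p 0.0943), endoderm (-0.35, adjusted p 0.0755) or mesoderm (-0.72, adjusted p 0.128). For HSPA8 the gene sums were thus called lower where this isoform, with at least 99.3% of the counts, was not.

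Genes of the wider chaperone network were followed in 4 lists that do not hold the 10 members and were chosen with earlier results known; the shares of all genes given above are their background. The cytosolic co-chaperones resembled the cytosolic members in hPSC: of 34 tested, 28 were higher in cytoplasm, 1 was lower, and the median was 0.83. DNAJA1, another J-domain partner of HSP70, rose by 1.98 ± 0.24 (adjusted p 1.08e-05), with 261 CPM ± 30.2 against 63.2 ± 4.6 (SD, n = 3). HSPB1, a small heat shock protein, rose by 1.96. In ectoderm 14 of 34 co-chaperones were higher and 9 lower, in endoderm 21 of 33 and 3, and in mesoderm 18 of 34 and 2. The mitochondrial folding list had 9 of 15 higher in hPSC cytoplasm and 2 lower, and in ectoderm 4 and 6.

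Chaperones of the endoplasmic reticulum (ER) were on the opposite side. All 8 were lower in cytoplasm than in nucleus in hPSC and endoderm, and 6 of 8 were in ectoderm and mesoderm, with medians of -2.29, -2.09, -0.81 and -1.86. HSPA5, the ER HSP70 known as BiP, held 85.5 CPM ± 5.18 in hPSC cytoplasm against 1240 ± 143 in nucleus (-3.93 ± 0.14, adjusted p 1.97e-10). HYOU1, an ER relative of HSPH1, fell by 3.89 on the log2 scale and HSP90B1, the ER HSP90, by 2.36. Between chromatin and nucleoplasm, 5, 7 and 8 of the ER list were lower in chromatin in hPSC, ectoderm and endoderm, and 0 were higher. The called genes of the ER list thus shared the chromatin direction of the cytosolic members. In hPSC HSPA5 and HSP90B1 were lower in cytoplasm, where HSPA8 and HSP90AA1 were higher. In the other cell types HSPA8 was called lower in cytoplasm as well.

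Against hPSC in cytoplasm, 7 of 8 ER chaperones were higher in ectoderm, 6 in endoderm and 4 in mesoderm, where 4 is not far from the share of all genes. HSPA5 rose by 1.80 ± 0.12 in ectoderm. The difference between this list and the members was not tested. Of 32 cytosolic co-chaperones, 20 were lower in ectoderm, 12 in endoderm and 22 in mesoderm, against 7, 4 and 5 higher; the endoderm count is near the share of all genes that were lower. HSPA2, an HSP70 abundant in testis, fell by 2.32 on the log2 scale in ectoderm and by 2.35 in mesoderm. DNAJC2, a ribosome-bound J-domain protein, rose by 4.73, 5.51 and 5.12 in ectoderm, endoderm and mesoderm, from 0.965 CPM ± 0.303 in hPSC, so the fold starts from a low level. The mitochondrial folding list had 9 of 13 lower in ectoderm, 6 in endoderm and 9 in mesoderm, with 0, 0 and 1 higher.

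Likeness of pattern was measured over the 16 groups as the root mean square difference of centred log2(CPM + 1) among 9170 genes. For HSPA8 the nearest genes were ZNF622 (0.24), IMMT (0.24) and AFG3L2 (0.30), where the median over genes was 0.99. For HSPH1 they were DDIAS (0.26), TRIM24 (0.27) and WDHD1 (0.28), against a median of 1.05, and for HSPD1 KIFBP (0.20), NOLC1 (0.21) and CPSF3 (0.21), against 0.93. Among the members HSPD1 was closer to HSPA9 (0.27) than to HSPE1 (0.68), its protein partner. HSPA1A and HSPA1B, whose reads may be shared, were 0.28 apart.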

How the data were processed

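Total RNA of 46 subcellular libraries was sequenced. The authors deposited whole-number counts and TPM (relative transcript abundance scaled for transcript length) for assembled transcripts, in a table for each cell type's own assembly and a combined one. STAR, RSEM and build hg38 are named without a role in the submitters' processing notes; the assembly method is not given in the sources used here, and the counts may be rounded RSEM estimates. Transcripts of a gene ID were summed and scaled by the library total (4990408 to 21298678 counts). In 1 table, 1 per-sample column that matched no sample was not used.

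Differences were tested two-sided with edgeR 4.0.16 (R 4.3.3): quasi-likelihood F test, TMM, filterByExpr with a minimum count of 10, and Benjamini-Hochberg adjustment over all features tested. Fractions of a cell type were fitted together; for mesoderm the smallest group that the filter uses is the 1 nucleoplasm library. Comparisons between cell types used the genes in all 4 tables, with libraries of the same fraction fitted together and full library totals; the interaction contrasts fitted cytoplasm and nucleus libraries together. All 10 members passed the filter in every fit. Alternatives were DESeq2 1.42.0, library totals without TMM, no filter, limma 3.58.1 on log2(TPM + 1), the replicate number as a block, HSPA1A and HSPA1B merged, the combined assembly, leaving out each library (90 fits on genes, 24 on transcripts) and, added after the data were seen, offsets fitted to GC content (loess span 0.5). Values relative to the median of all genes, and the counts of calls kept under every alternative, were also added then. The fits were tested on simulated data. None of 45 replicate pairs held identical values or agreed within sampling noise (lowest chi-square per transcript 13.7). A permutation test of 3 against 3 libraries cannot go below p = 0.1, so none was used.

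All 10 members were tested in each comparison, though the text does not give every value. Isoforms were named from those with at least 20% of a gene's counts or called against the gene sum. List genes were named from those with a mean of at least 10 CPM among the 3 largest rises or falls per comparison. The 3 genes closest to HSPA8, HSPH1 and HSPD1 were named too. Members and lists were chosen with earlier results of these data known. Figures were drawn with matplotlib 3.10.9.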

Additional observations from a re-analysis of the deposited data

Results flagged for a closer look

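The division of chaperone mRNA between cytoplasm and nucleus differed from that in hPSC by the interaction contrast (edgeR) in 18 cases, each a difference of 2 log2 differences, and the 3 cell types share the hPSC libraries. In ectoderm these were DNAJB1 (-1.31), HSPE1 (-1.13), HSPA8 (-0.94), HSPA1A (-0.64) and HSPD1 (-0.63), all toward nucleus. In endoderm HSP90AA1 (1.43), HSPH1 (0.89), HSPD1 (0.64) and HSPA9 (0.61) lay toward cytoplasm, and HSPA1A (-1.29), HSPA8 (-1.16) and HSPA1B (-1.12) toward nucleus. In mesoderm HSPA8 (-1.49), HSPA1A (-1.47), HSPA1B (-1.27), HSPH1 (-1.15), HSP90AA1 (-1.05) and HSPA9 (-0.80) lay toward nucleus.

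Without TMM the median of all genes moved by 0.13, 0.60 and -0.25 in ectoderm, endoderm and mesoderm. Across genes the shift fell with GC in endoderm (rho -0.75) and less in ectoderm (-0.26), while in mesoderm the rho was 0.17. The endoderm calls of HSPH1, HSPD1 and HSPA9 were lost with the GC offset. Calls kept under every scaling were 1 of 5 in ectoderm (DNAJB1) and 1 of 7 in endoderm (HSP90AA1). In mesoderm they were 5 of 6, all but HSP90AA1. The nuclear control RNAs, which were below their cytoplasm level in the ectoderm and endoderm nucleus libraries, were not in mesoderm; their part in these shifts was not tested.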

How the results depend on the processing

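Scaling moved the results most. The median of all genes moved by -0.25 to 0.70 without TMM, by -0.82 to 0.59 in TPM and by at most 0.07 in either direction with DESeq2. DESeq2 kept 153 of 160 member values on their side of the threshold and added 7 calls; for isoforms it called 10 in ectoderm against 5. Without the filter 158 of 160 values kept their call, and all 20 values from the combined assembly did. Of the leave-one-out values 1005 kept their call, 103 lost it, 16 gained one and 16 turned sign; the cause was not tested. Depth does not limit most members, which had over 10 CPM in every library except HSPH1 in 1 endoderm nucleus library.

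In TPM, members called between cytoplasm and nucleus were 3 in hPSC, 3 in ectoderm and 9 in mesoderm; between chromatin and nucleoplasm 1 in hPSC, 2 in ectoderm and 5 in endoderm; 2 for endoderm cytoplasm, 2 for mesoderm chromatin and 1 for the ectoderm interaction. Isoforms called in TPM were 3 in hPSC and 11 in mesoderm. Without TMM, members called were 2 between chromatin and nucleoplasm in hPSC, 5 for endoderm cytoplasm and 3 for the ectoderm interaction. With GC offsets 4 members were called in the endoderm interaction.

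TPM turned the sign, for cytoplasm against nucleus, of HSP90AB1 (-0.15), HSPA1A (-0.07) and HSPA1B (-0.28) in hPSC, HSPA1B (0.09) in ectoderm, and HSP90AA1 (-0.70), DNAJB1 (-0.26) and HSPD1 (-0.94) in mesoderm. For chromatin against nucleoplasm it turned HSPA8 (0.12), HSP90AB1 (0.15), HSPA1A (0.26), HSPA1B (0.34), DNAJB1 (0.38) and HSPA9 (0.02) in hPSC, DNAJB1 (0.62) and HSPA9 (0.06) in ectoderm, and DNAJB1 (0.52) in endoderm. Against hPSC it turned HSP90AA1 in ectoderm cytoplasm (0.25), HSPA8 in endoderm cytoplasm (0.06), DNAJB1 in mesoderm cytoplasm (0.67), and DNAJB1 (0.10) and HSPH1 (0.46) in mesoderm chromatin. In the interactions it turned HSP90AA1 (0.35), HSP90AB1 (0.11), HSPA1B (0.37) and HSPA9 (0.27) in ectoderm, DNAJB1 (0.20) and HSPE1 (0.66) in endoderm, and DNAJB1 (-0.79) and HSPE1 (-0.41) in mesoderm.

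Leaving out TMM turned DNAJB1 between chromatin and nucleoplasm in hPSC (0.05), ectoderm (0.16) and endoderm (0.48), HSPA1B (0.11) in ectoderm and HSPA8 (0.13) in endoderm between cytoplasm and nucleus, DNAJB1 in mesoderm cytoplasm (0.04), HSP90AA1 in mesoderm chromatin (-0.01), DNAJB1 (0.12) and HSPE1 (0.40) in the endoderm interaction and DNAJB1 (-0.17) in the mesoderm one. GC offsets turned HSPA1A (0.13), HSPA1B (0.31), HSPD1 (-0.12) and HSPA9 (-0.26) between cytoplasm and nucleus in ectoderm, DNAJB1 in mesoderm cytoplasm (0.09), and the interactions of HSPA1B in ectoderm (0.03), HSPH1 in endoderm (-0.02) and DNAJB1 in mesoderm (-0.09).

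Members called ranged over the fits that left out 1 library, for cytoplasm against nucleus, from 7 to 9 in hPSC, 4 to 7 in ectoderm, 8 to 10 in endoderm and 4 to 5 in mesoderm. For chromatin against nucleoplasm they ranged from 2 to 7 in hPSC and 8 to 9 in ectoderm, and stayed at 9 in endoderm. Against hPSC the ranges for ectoderm, endoderm and mesoderm were 8 to 9, 5 to 8 and 7 to 9 in cytoplasm, 7 to 8, 6 to 9 and 3 to 6 in chromatin, and 2 to 6, 5 to 8 and 5 to 7 in the interactions. Isoforms called ranged from 8 to 11, 2 to 7, 11 to 13 and 4 to 5 in hPSC, ectoderm, endoderm and mesoderm; the ectoderm low of 2 is without cytoplasm replicate 3. Member values that crossed 0 were those of HSP90AA1 in mesoderm chromatin (-0.28 to 0.40), ectoderm cytoplasm (-0.26 to 0.04) and endoderm cytoplasm (-0.04 to 0.26), HSPH1 in endoderm chromatin (-0.51 to 0.14) and mesoderm chromatin (-0.37 to 0.27), DNAJB1 in ectoderm cytoplasm (-0.01 to 0.07), ectoderm chromatin (-0.02 to 0.13) and ectoderm chromatin against nucleoplasm (-0.15 to 0.03), and HSPE1 in the endoderm interaction (-0.40 to 0.22). None of these was called with all libraries; HSPH1 in endoderm chromatin (-0.51) was called without hPSC chromatin replicate 3 and HSP90AA1 in ectoderm cytoplasm (-0.26) without hPSC cytoplasm replicate 1.

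In no comparison did every pair of libraries with the same replicate number correlate by over 0.1 in their deviations (correlations from -0.52 to 0.494; in 3 pairs of groups, as in hPSC cytoplasm with nucleus, all were above 0), so the number was not taken as a pairing. With the replicate number as a block, 154 values kept their call, 5 lost it, and HSPH1 in mesoderm chromatin turned from -0.01 to 0.10. At most 4 of the 6 libraries of a comparison correlated best with their own number.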

Other observations

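The whole nucleus is the material from which nucleoplasm and chromatin were made, yet its chaperone levels did not always lie between theirs. In hPSC the nucleus mean CPM was below both for 9 of the 10 members, the exception being HSP90AB1, and in ectoderm it was above both for 7 and below both for 1, HSPH1. In endoderm HSP90AA1, HSPA9, HSPD1 and HSPH1 were below both and DNAJB1, HSPA1A, HSPA1B and HSPA8 above both. HSP90AA1 in endoderm showed the widest gap, with 50.0, 239 and 159 CPM in nucleus against 1090, 1038 and 1005 in nucleoplasm and 402, 409 and 337 in chromatin. HSPH1 held 43.2, 50.4 and 45.4 CPM in hPSC nucleus against 162, 157 and 143 in nucleoplasm and 152, 141 and 45.5 in chromatin, where replicate 3 is the chromatin library that stood apart. These values were compared without a test.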
